A study of Mus musculus with 18 samples.

Results

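The 37 genes described here belong to the interferon response and to the making of peptides for MHC class I in mouse fibroblasts. They were taken by symbol as a list: 7 transcription factors, 4 receptor chains, 4 proteins that sense viral RNA or serve its sensors, 13 antiviral effectors, the modifier Isg15 and its protease Usp18, 3 subunits of the immunoproteasome and 4 genes of peptide loading and MHC class I. A gene counted as expressed where its summed FPKM (fragments per kilobase of transcript per 1000000 mapped fragments, added over its assembled transcripts) was at least 1 in at least 2 libraries. This held for 32 of the 37 genes and for 12244 genes in all. Irf7, Oas1a, Oasl2, Rsad2 and Mx1 were listed at 0 in all 18 libraries. Here and below, a 0 means that no assembled transcript was placed on the gene in that library, which is not a measured absence. The 32 are therefore the expressed members and not the whole list, and a member seen in 1 condition alone (Irf5, Gbp3 and Usp18 come close to that) entered the test because of the condition in which it was seen.

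The cells were immortalized mouse embryonic fibroblasts that lack Rela (rela-/-), to which mouse RelA, the transactivating subunit of NF-κB, had been returned with the retroviral vector pBABE-puro. RelA(wt) cells carry the wild-type protein, RelA(TA2) cells a protein with L449A and F473A in the TA2 transactivation segment that contacts the coactivators CBP and p300, and RelA(Ser276Ala) cells a protein with S276A at a phosphorylated serine of the Rel homology region. Each line was left untreated (0 h) or given TNFα at 5 ng/ml for 1 h or 2 h, and RNA was sequenced from 2 libraries per condition, 18 in all. The study calls the 2 libraries independent replicates; the sources used here do not say whether they came from separate cultures, so p-values measure the spread between these libraries, which may be technical. Each line is 1 reconstituted population, so the substitution, the amount of RelA and the history of the population cannot be told apart. Rela itself lay at 156 to 187 FPKM in RelA(wt), 315 to 366 FPKM in RelA(TA2) and 174 to 211 FPKM in RelA(Ser276Ala), while the study describes less RelA protein in RelA(Ser276Ala) cells.

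Between 25.3 M and 31.3 M fragments (M for 1000000) were mapped per library (median 28.3 M). The 8 fibroblast markers were expressed in every line, with a summed level of 3247 to 3899 FPKM in RelA(wt), 3716 to 4168 FPKM in RelA(TA2) and 2818 to 3531 FPKM in RelA(Ser276Ala). Among 9 markers of macrophages and other leukocytes, Ptprc, Emr1, Aif1, Itgam and Cd3e were listed at 0 in every library, and the summed level of the list was 12.6 to 29.02 FPKM in RelA(wt), 10.04 to 16.9 FPKM in RelA(TA2) and 11.2 to 28.8 FPKM in RelA(Ser276Ala). The endothelial markers Pecam1 and Tek and all 4 epithelial markers were listed at 0. The other 2 of 4 endothelial markers, Cdh5 and Kdr, counted as expressed. The summed level of the endothelial list was 1.12 to 7.57 FPKM in RelA(wt), 4.10 to 10.2 FPKM in RelA(TA2) and 1.86 to 12.3 FPKM in RelA(Ser276Ala). In bulk RNA, fewer cells with a transcript and less of it in each cell cannot be told apart.

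Type I interferons bind a receptor of Ifnar1 and Ifnar2, and interferon γ one of Ifngr1 and Ifngr2. Both receptors act through STAT proteins, which enter promoters at the interferon-stimulated response element (ISRE, with Irf9) or at the gamma-activated sequence (GAS). Irf1 is a transcription factor that answers to interferon γ and also to NF-κB, and it in turn acts on ISRE-like sites of genes such as Psmb9, Tap1 and the guanylate-binding proteins. TNFα is a classical activator of NF-κB in fibroblasts, which makes this gene list a meeting place of the 2 pathways.

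The promoters of 5 members are shown because these genes carry most of the results below: Irf1 rose within 1 h, Ifngr2 and Gbp2 at 2 h, Ifit3 fell, and B2m was lower in one line. The sequences are RefSeq's on GRCm38.p6, 200 bases before to 20 bases after the annotated start, read 5′ to 3′ in the direction of the gene. Capitals mark every match, on either strand, to the κB consensus, to the ISRE core GAAANNGAAA or to the GAS core TTCNNNGAA. Irf1 lies on the plus strand at chr11:53769814-53770033, Gbp2 on the plus strand at chr3:142620463-142620682, Ifngr2 on the plus strand at chr16:91546859-91547078, Ifit3 on the plus strand at chr19:34583329-34583548 and B2m on the plus strand at chr2:122147487-122147706.
Irf1: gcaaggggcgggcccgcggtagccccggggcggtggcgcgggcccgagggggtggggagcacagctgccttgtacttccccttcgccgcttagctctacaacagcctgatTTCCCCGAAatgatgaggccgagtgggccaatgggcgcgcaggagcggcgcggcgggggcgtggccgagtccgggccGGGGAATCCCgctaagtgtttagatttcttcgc
Gbp2: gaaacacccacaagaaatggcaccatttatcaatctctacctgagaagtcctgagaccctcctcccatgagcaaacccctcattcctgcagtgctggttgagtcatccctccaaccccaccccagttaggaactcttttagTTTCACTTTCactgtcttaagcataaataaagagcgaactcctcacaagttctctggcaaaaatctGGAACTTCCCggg
Ifngr2: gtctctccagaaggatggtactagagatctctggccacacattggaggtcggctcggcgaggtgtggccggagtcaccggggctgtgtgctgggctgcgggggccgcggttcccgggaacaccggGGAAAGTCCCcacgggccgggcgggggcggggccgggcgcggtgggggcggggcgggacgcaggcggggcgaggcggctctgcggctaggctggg
Ifit3: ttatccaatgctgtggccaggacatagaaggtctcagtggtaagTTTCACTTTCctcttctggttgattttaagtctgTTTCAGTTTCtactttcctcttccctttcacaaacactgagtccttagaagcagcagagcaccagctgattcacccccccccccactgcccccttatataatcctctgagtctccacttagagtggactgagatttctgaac
B2m: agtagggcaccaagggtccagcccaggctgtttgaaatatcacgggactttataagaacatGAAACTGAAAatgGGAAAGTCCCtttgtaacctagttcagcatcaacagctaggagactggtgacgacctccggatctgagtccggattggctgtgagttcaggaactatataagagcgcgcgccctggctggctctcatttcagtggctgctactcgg

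In these windows Irf1 holds a GAS match at -90 to -82 and a κB match at -13 to -4, with the start counted as 1 and the base before it as -1. The Gbp2 window has an ISRE match at -59 to -50 and a κB match at 8 to 17, and the Ifngr2 window a κB match at -75 to -66 and no match to the other 2 motifs. Ifit3 has 2 ISRE matches, at -156 to -147 and -122 to -113. B2m has an ISRE match at -139 to -130 beside a κB match at -126 to -117. Over the full windows of 250 bases before to 50 after the start, 32 members had a RefSeq window. Mx1, Mx2, Dhx58, Usp18 and Tap2 had none. The κB consensus was found in 7 of the 32 (21.9%, against 8.46% of all 32851 windows): Irf1, Irf2, Ifngr2, Ifit2, Gbp2, Bst2 and B2m. The ISRE core was found in 13 (40.6%, against 3.44%), among them Ifit1, Ifit3, Rsad2, Gbp3, Eif2ak2 and Isg15, and the GAS core in 10 (31.2%, against 8.30%), among them Ifnar1, Ifnar2, Ifit2 and Psmb8. These member shares count genes, while the shares over all count windows, so they are not like for like. By window, 7 of the members' 36 windows held the κB consensus, 13 the ISRE core and 10 the GAS core. A match is only a run of letters and not a shown binding site.

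Levels were read in 2 ways. FPKM as deposited was the main measure, tested with limma on log2(FPKM + 0.5) over all 18 libraries, and differences below are on that log2 scale with their SE unless a sentence says otherwise. Because Cufflinks assembled transcripts anew in each library, the summed FPKM of a gene also moves with how its transcript was assembled: B2m was listed at 458 to 578 FPKM in the 4 libraries where 1 longer transcript was built and at 884 to 1695 FPKM in the others. The number of fragments behind each FPKM value was therefore recovered from the file, expressed per M fragments in genes, and tested in the same way on log2(value + 0.5). Between the 2 libraries of a condition the SD had a median over genes of 0.31 (log2 FPKM) and 0.10 (log2 recovered fragments), and 29 members passed the same filter on both. An adjusted p is limma's two-sided p after Benjamini-Hochberg adjustment over all 12244 genes (FPKM) or 11778 genes (recovered fragments), and a change was called at an adjusted p under 0.05. Both measures come from the same files, so a call by both is 1 observation. "Held throughout" below means that the call was also made in each of 18 fits that left out 1 library.

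**Figure D1:**
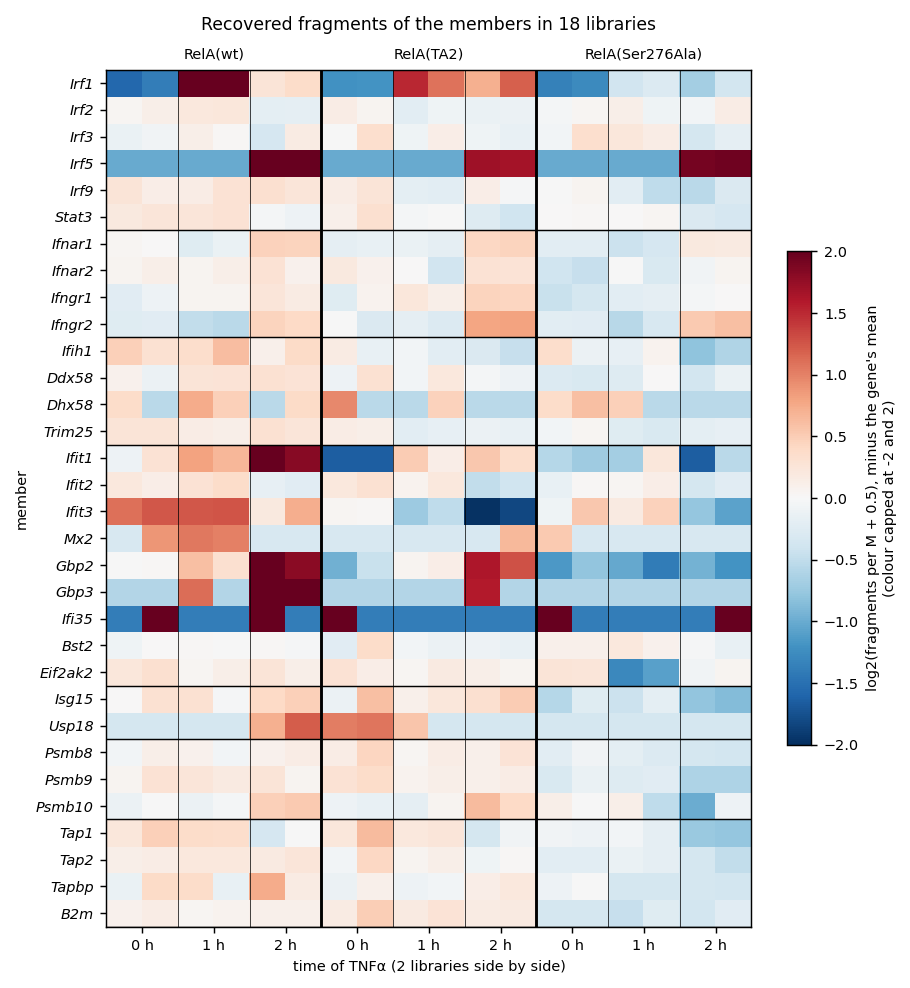
Recovered fragments of the 32 expressed members (rows, by role) in the 18 libraries (columns, by line and time), as log2(fragments per M + 0.5) minus the gene's mean, with the colour capped at -2 and 2; for Irf9, Eif2ak2 and Tapbp the fragments over annotated exons are drawn. Irf1 stands out at 1 h in RelA(wt) and RelA(TA2), Ifit3 is high in RelA(wt) at 0 h and 1 h, and the Ifi35 row changes with whether its transcript was assembled.

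After TNFα, 1 of 32 members passed the FPKM test in RelA(wt) at 1 h (1.50% of all genes passed it) and 3 at 2 h (1.73% of all genes). In RelA(TA2) the counts were 1 at 1 h (1.75% of all genes) and 8 at 2 h, 5 higher and 3 lower (3.64%). In RelA(Ser276Ala) they were 2 at 1 h, 1 in each direction (1.42%), and 2 at 2 h (0.988%). By recovered fragments, 2 of 29 members passed in RelA(wt) at 1 h (7.13% of all genes) and 12 at 2 h, 8 higher and 4 lower (13.6%). RelA(TA2) had 5 at 1 h (10.7%) and 12 at 2 h (28.9%), and RelA(Ser276Ala) had 4 at 1 h (6.50%) and 12 at 2 h, 6 in each direction (10.7%). The counts by fragments include Irf9 in RelA(TA2) at 1 h and Tapbp in RelA(Ser276Ala) at 2 h, which were joined to a neighbouring gene and whose sign turned over annotated exons (-0.41 ± 0.12 (adjusted p = 0.0505) and -0.30 ± 0.20 (adjusted p = 0.396)). Of the 17 calls by FPKM, 12 held throughout. Averaged over the 3 lines, 1 member passed the FPKM test at 1 h (4.06% of all genes) and 6 at 2 h (8.22%). All 7 of these calls held throughout: Irf1 at both times, and Irf5, Ifngr1, Ifngr2, Ifit2 and Ifit3 at 2 h. Irf5 entered the test through its libraries of 2 h alone, so its calls at 2 h, here and within lines, were fixed in direction. By recovered fragments the average over lines gave 7 of 29 at 1 h, 3 higher and 4 lower (16.8% of all genes), and 19 of 29 at 2 h, 10 higher and 9 lower (39.5%), of which 6 and 17 held throughout. Among these, Tapbp at 2 h was at 0.37 ± 0.10 (adjusted p = 0.0119), and at 0.07 ± 0.12 (adjusted p = 0.683) over annotated exons. The members' median difference stayed near that of all genes, between -0.23 and 0.22 within lines, against -0.07 to 0 over all genes. By FPKM most members passed no test with time, and by fragments averaged over lines at 2 h most passed, with nearly as many lower as higher.

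Irf1 was the one member that the FPKM test called higher at 1 h, in all 3 lines. In RelA(wt) its FPKM was 4.17 and 5.04 at 0 h, 70.5 and 58.7 at 1 h and 15.1 and 16.4 at 2 h. RelA(TA2) held Irf1 at 5.77 and 5.84 at 0 h, 36.9 and 27.5 at 1 h and 21.6 and 28.9 at 2 h. RelA(Ser276Ala) held it at 4.73 and 5.42 at 0 h, 10.5 and 10.7 at 1 h and 8.06 and 10.3 at 2 h. All libraries of 0 h lay between 4.17 and 5.84 FPKM, and at 1 h the 3 lines stood apart, with RelA(wt) highest and RelA(Ser276Ala) lowest. The rise at 1 h was 14.0-fold between the mean FPKM of RelA(wt), 3.67 ± 0.19 (adjusted p = 9.76e-07) on the log2 scale, and 5.54-fold in RelA(TA2), 2.36 ± 0.19 (adjusted p = 6.78e-05). At 2 h the difference from 0 h was 1.67 ± 0.19 (adjusted p = 9.13e-04) in RelA(wt) and 2.01 ± 0.19 (adjusted p = 2.47e-04) in RelA(TA2). These 4 calls held throughout. By 2 h the RelA(wt) libraries had come down from their level at 1 h to 15.1 and 16.4 FPKM, under both RelA(TA2) libraries. In RelA(Ser276Ala) the rise at 1 h was 0.997 ± 0.19 (adjusted p = 0.0238), a call lost without any 1 of the 4 RelA(Ser276Ala) libraries of 0 h and 1 h (adjusted p up to 0.132), while by recovered fragments it was 0.98 ± 0.17 (adjusted p = 0.00495) and held throughout. At 2 h it was 0.78 ± 0.17 (adjusted p = 0.0168) by fragments, lost without RelA(Ser276Ala) 0 h replicate 1 or 2 or 2 h replicate 2 (adjusted p up to 0.109). RelA(Ser276Ala) was lower than RelA(wt) at 1 h by -2.55 ± 0.19 (adjusted p = 3.54e-05), which held throughout.

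The size of the Irf1 response itself was compared between lines as the difference of 2 differences. The response at 1 h in RelA(Ser276Ala) was lower than that of RelA(wt) by -2.67 ± 0.26 (adjusted p = 0.00102), and it was the one member called in this comparison (0.196% of all genes). It held throughout on both measures. For RelA(TA2) at 1 h the FPKM test did not pass, with no member called (0.278% of all genes) and 5 at an unadjusted p under 0.05; the Irf1 value was -1.31 ± 0.26 (adjusted p = 0.0974). By recovered fragments the same value was -1.27 ± 0.25 (adjusted p = 0.0294), 1 of 2 members called (1.88% of all genes), and it was lost without any of 6 libraries: RelA(wt) 0 h or 1 h replicate 1 or 2, and RelA(TA2) 0 h or 1 h replicate 2 (adjusted p up to 0.112). The other, Irf9, is described below with the gene it was joined to.

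**Figure D2:**
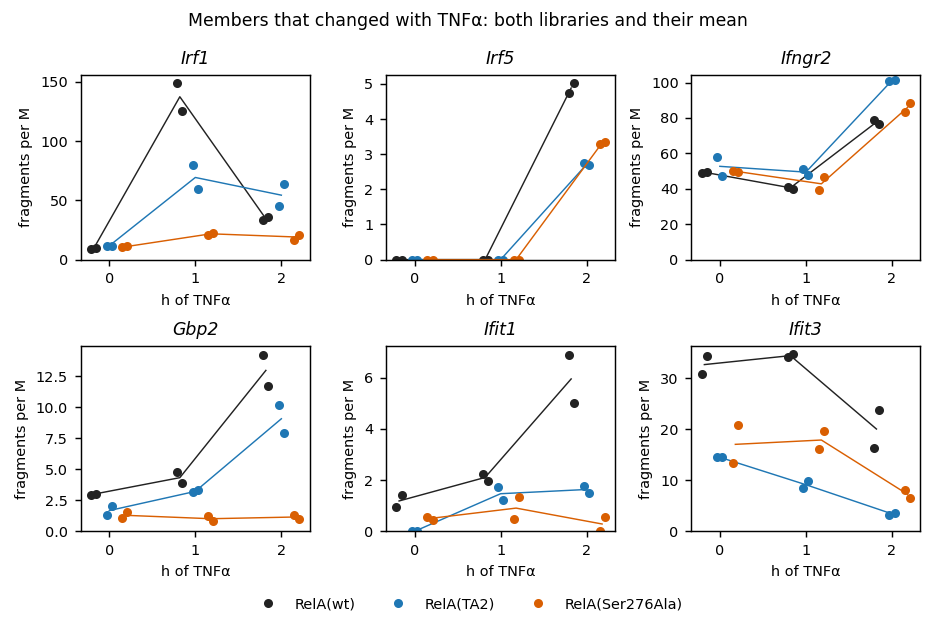
Recovered fragments per M (y, from 0) against h of TNFα (x) for members that changed with treatment; points are the 2 libraries of each condition, set side by side by line, and lines join the means. Irf1 rose in all 3 lines with the highest points in RelA(wt) at 1 h, Ifngr2 rose in all 3 at 2 h, and Gbp2 rose in RelA(wt) and RelA(TA2) while all RelA(Ser276Ala) libraries stayed between 0.824 and 1.52.

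Irf5, a transcription factor best known from myeloid cells, was listed at 0 in all libraries of 0 h and 1 h. At 2 h it was at 2.18 and 2.51, 1.38 and 1.35 and 1.57 and 1.59 FPKM in RelA(wt), RelA(TA2) and RelA(Ser276Ala), in that order. It was thus detected at one time and in every library of that time. Irf5 entered the test through its libraries of 2 h alone, which fixed a higher level at that time. Its calls at 2 h against 0 h are therefore no support for a rise, and only its levels are given. Recovered fragments at 2 h were 4.75 and 5.02, 2.74 and 2.69 and 3.298 and 3.35 per M in the same order.

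Among the other transcription factors, Irf2, an antagonist of Irf1 at shared sites, lay between 11.3 and 38.4 FPKM with no call by FPKM in any of 21 comparisons. Irf3, the factor activated by the RNA sensors, lay between 12.7 and 28.6 FPKM and passed neither test anywhere. Stat3, the signal transducer of the interleukin 6 family, had FPKM values between 13.4 and 42.3 that were uneven within conditions, such as 42.3 and 21.3 in RelA(wt) at 1 h. Its recovered fragments were 98.7 and 102 at 0 h, 102 and 106 at 1 h and 83.6 and 80.5 at 2 h in RelA(wt). RelA(TA2) had Stat3 at 92.002 and 108 at 0 h, 84.3 and 85.4 at 1 h and 71.6 and 64.96 at 2 h. RelA(Ser276Ala) had Stat3 at 87.1 and 87.99 at 0 h, 86.95 and 88.6 at 1 h and 70.4 and 68.2 at 2 h. The fragments were lowest at 2 h in each line, with no overlap with 0 h. The fall passed the fragment test in RelA(TA2), -0.54 ± 0.07 (adjusted p = 2.08e-04), and held throughout. It also passed in RelA(wt), -0.29 ± 0.07 (adjusted p = 0.016), lost without any 1 of the RelA(wt) libraries of 0 h and 2 h (adjusted p up to 0.105), and in RelA(Ser276Ala), -0.33 ± 0.07 (adjusted p = 0.0101), lost without RelA(Ser276Ala) 0 h replicate 1 or 2 or 2 h replicate 2 (adjusted p up to 0.0773).

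Irf9, a DNA-binding factor of the type I interferon response, changed with the assembly. Its summed FPKM was listed at 0 in 6 libraries and at 1.61 to 6.44 in the other 12, and in 11 libraries its reads were assembled into 1 transcript with its neighbour Rnf31. By FPKM the 2 h values in RelA(wt) were 6.44 and 3.34 and those in RelA(TA2) 0 in both. The FPKM difference between RelA(TA2) and RelA(wt) was -3.35 ± 0.78 (adjusted p = 0.0466) at 0 h and -3.37 ± 0.78 (adjusted p = 0.0482) at 2 h, and both calls were lost in 14 of the 18 fits that left out 1 library, all but those without a RelA(wt) 1 h or RelA(Ser276Ala) 0 h library (adjusted p up to 0.204). When fragments of joined transcripts were shared out over annotated exons, a measure added after the data were seen, Irf9 was at 15.4 and 14.1 at 0 h, 14.2 and 15.7 at 1 h and 16.005 and 15.1 at 2 h per M in RelA(wt). RelA(TA2) had 14.1 and 15.4 at 0 h, 11.02 and 10.9 at 1 h and 14.03 and 12.5 at 2 h on this measure, and RelA(Ser276Ala) had 12.7 and 13.3 at 0 h, 10.996 and 8.79 at 1 h and 8.61 and 10.4 at 2 h. All 18 libraries then held the gene. The sharing went by bases of overlap and not by where reads fell. Where Irf9 was joined, these values therefore also carry coverage of Rnf31. On exons the response of RelA(TA2) at 1 h differed from that of RelA(wt) by -0.43 ± 0.17 (adjusted p = 0.228), where recovered fragments of whole transcripts gave 7.53 ± 1.51 (adjusted p = 0.0321), of the opposite sign. That call was lost in 8 fits, those without RelA(wt) 0 h or 2 h replicate 1 or 2, RelA(wt) 1 h replicate 1, RelA(TA2) 0 h replicate 2 or RelA(TA2) 1 h replicate 1 or 2 (adjusted p up to 0.104). Within RelA(Ser276Ala) the exon measure at 2 h differed from 0 h by -0.44 ± 0.12 (adjusted p = 0.0389).

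Both chains of the interferon γ receptor rose at 2 h. Ifngr2, the signalling chain, was at 23.1 and 23.3 at 0 h, 19.8 and 18.7 at 1 h and 36.97 and 34.8 at 2 h FPKM in RelA(wt). RelA(TA2) had Ifngr2 at 27.8 and 22.7 at 0 h, 23.8 and 22.1 at 1 h and 48.1 and 47.5 at 2 h. RelA(Ser276Ala) had Ifngr2 at 24.1 and 23.5 at 0 h, 18.9 and 22.1 at 1 h and 39.5 and 41.6 at 2 h. Every library of 2 h was above every library of 0 h and 1 h. The rise from 0 h to 2 h was 0.91 ± 0.11 (adjusted p = 0.00108) in RelA(TA2) and 0.76 ± 0.11 (adjusted p = 0.00717) in RelA(Ser276Ala), and both held throughout. In RelA(wt) it was 0.62 ± 0.11 (adjusted p = 0.0144), lost without RelA(wt) 0 h replicate 1 or 2 or RelA(wt) 2 h replicate 1 (adjusted p up to 0.0759), while recovered fragments gave 0.65 ± 0.09 (adjusted p = 8.74e-04), which held throughout. Averaged over the lines the rise was 0.76 ± 0.06 (adjusted p = 3.20e-05).

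Ifngr1, the ligand-binding chain, was at 13.6 and 14.7 at 0 h, 16.7 and 15.9 at 1 h and 18.1 and 16.1 at 2 h FPKM in RelA(wt). RelA(TA2) had Ifngr1 at 13.4 and 16.9 at 0 h, 18.7 and 17.7 at 1 h and 21.9 and 20.5 at 2 h. RelA(Ser276Ala) had Ifngr1 at 11.5 and 12.3 at 0 h, 13.9 and 14.05 at 1 h and 15.7 and 15.7 at 2 h. In each line both libraries of 2 h were above both of 0 h. The average over lines at 2 h was 0.38 ± 0.06 (adjusted p = 0.00495) and held throughout. Within lines the FPKM test passed in RelA(TA2) alone, 0.48 ± 0.11 (adjusted p = 0.0404), and that call was lost in 15 of the 18 fits, all but those without RelA(wt) 2 h replicate 1 or 2 or RelA(TA2) 0 h replicate 2 (adjusted p up to 0.152). By fragments the rise passed in all 3 lines, 0.52 ± 0.09 (adjusted p = 0.00185) in RelA(TA2), which held throughout, 0.36 ± 0.09 (adjusted p = 0.0263) in RelA(wt) and 0.38 ± 0.09 (adjusted p = 0.0246) in RelA(Ser276Ala), the last 2 lost without any 1 library of 0 h or 2 h of the line (adjusted p up to 0.181 and 0.136).

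The chains of the type I receptor gave a steadier picture by fragments than by FPKM. Ifnar1 ranged from 8.61 to 42.3 FPKM: it was 22.1 and 42.3 at 0 h, 18.2 and 18.6 at 1 h and 28.2 and 18.5 at 2 h in RelA(wt), 19.9 and 19.7 at 0 h, 14.2 and 8.61 at 1 h and 13.4 and 13.4 at 2 h in RelA(TA2) and 16.2 and 18.8 at 0 h, 16.3 and 16.8 at 1 h and 24.6 and 20.7 at 2 h in RelA(Ser276Ala). Its recovered fragments per M were 78.4 and 76.2 at 0 h, 64.5 and 69.5 at 1 h and 104 and 104 at 2 h in RelA(wt). RelA(TA2) had 66.7 and 68.5 at 0 h, 68.9 and 67.1 at 1 h and 102 and 104 at 2 h and RelA(Ser276Ala) had 65.5 and 65.9 at 0 h, 56.4 and 60.1 at 1 h and 87.2 and 85.8 at 2 h. By fragments all libraries of 2 h were above all libraries of the other times in every line, and the rise from 0 h was 0.43 ± 0.05 (adjusted p = 1.31e-04), 0.60 ± 0.05 (adjusted p = 6.48e-06) and 0.39 ± 0.05 (adjusted p = 3.80e-04). All of these held throughout, whereas no FPKM test of Ifnar1 within a line passed. By FPKM the mean at 2 h was below that at 0 h in RelA(wt) and RelA(TA2), the other direction, and above it in RelA(Ser276Ala). At 1 h the fragments were lower than at 0 h in RelA(wt), -0.21 ± 0.05 (adjusted p = 0.0172), lost without RelA(wt) 0 h replicate 1 or 2 or 1 h replicate 1 (adjusted p up to 0.167), and in RelA(Ser276Ala), -0.17 ± 0.05 (adjusted p = 0.0457), lost in 13 fits, all but those without either RelA(TA2) library of 0 h, either RelA(wt) library of 1 h or RelA(Ser276Ala) 1 h replicate 2 (adjusted p up to 0.222). Ifnar2 had 19.9 to 79.3 FPKM and 20.4 to 34.4 fragments per M, and no change with time within a line passed either test.

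Neither the sensors nor Trim25 passed the FPKM test with time. Ifih1 and Ddx58, helicases that bind viral double-stranded RNA, lay between 1.22 and 11.6 FPKM and between 2.58 and 10.5 FPKM, and no FPKM test of either passed in any comparison. By fragments Ifih1 fell in RelA(Ser276Ala) at 2 h, -0.82 ± 0.20 (adjusted p = 0.0235), lost without RelA(Ser276Ala) 0 h replicate 1 or either library of 2 h (adjusted p up to 0.164). Dhx58 was listed at 0 in 9 libraries and reached 2.47 FPKM in RelA(TA2) at 0 h replicate 1. Trim25, the ubiquitin ligase that acts on Ddx58, fell by recovered fragments in RelA(TA2), -0.32 ± 0.04 (adjusted p = 4.73e-04) at 1 h and -0.26 ± 0.04 (adjusted p = 9.11e-04) at 2 h, and in RelA(Ser276Ala) at 1 h, -0.27 ± 0.04 (adjusted p = 0.00197). These held throughout. In RelA(Ser276Ala) at 2 h the fall of Trim25 was -0.17 ± 0.04 (adjusted p = 0.0218), lost without either RelA(Ser276Ala) library of 2 h or 0 h replicate 2 (adjusted p up to 0.19), and no corresponding FPKM test passed.

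Of the IFIT genes, which bind foreign RNA, Ifit3 and Ifit2 fell and Ifit1 rose. Ifit3 was at 15.7 and 16.2 at 0 h, 16.6 and 17.1 at 1 h and 7.85 and 12.4 at 2 h FPKM in RelA(wt). RelA(TA2) had Ifit3 at 7.702 and 7.18 at 0 h, 4.38 and 5.63 at 1 h and 1.701 and 2.13 at 2 h. RelA(Ser276Ala) had Ifit3 at 6.67 and 9.504 at 0 h, 8.48 and 10.3 at 1 h and 4.08 and 3.402 at 2 h. The libraries of 2 h were the lowest in each line, and RelA(wt) at 0 h and 1 h was above every other condition. From 0 h to 2 h the fall was -1.72 ± 0.23 (adjusted p = 0.00254) in RelA(TA2), which held throughout. It was -1.002 ± 0.23 (adjusted p = 0.082) in RelA(Ser276Ala) and -0.66 ± 0.23 (adjusted p = 0.25) in RelA(wt), neither past the FPKM test. By fragments it passed in both, -1.15 ± 0.21 (adjusted p = 0.00642) in RelA(Ser276Ala), lost without RelA(Ser276Ala) 0 h replicate 2, and -0.71 ± 0.21 (adjusted p = 0.0459) in RelA(wt), lost in 9 fits, those without any RelA(wt) library but 2 h replicate 2 or any RelA(TA2) library of 1 h or 2 h (adjusted p up to 0.0675 and 0.302). Averaged over lines it was -1.13 ± 0.13 (adjusted p = 4.44e-04).

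Ifit2 was at 15.4 and 15.3 at 0 h, 16.5 and 17.99 at 1 h and 12.2 and 11.7 at 2 h FPKM in RelA(wt). RelA(TA2) held Ifit2 at 16.6 and 17.8 at 0 h, 14.2 and 15.3 at 1 h and 10.3 and 10.1 at 2 h. RelA(Ser276Ala) held Ifit2 at 12.3 and 13.5 at 0 h, 14.2 and 15.6 at 1 h and 11.2 and 11.9 at 2 h. Both libraries of 2 h were below both of 0 h in every line, and the fall was -0.72 ± 0.09 (adjusted p = 0.002) in RelA(TA2) and -0.41 ± 0.05 (adjusted p = 9.93e-04) on average. By fragments the fall also passed in RelA(wt), -0.38 ± 0.08 (adjusted p = 0.00818), lost without RelA(wt) 0 h replicate 1 or 2 h replicate 2 (adjusted p up to 0.0717). Ifit1 was much lower, between 0 and 6.63 FPKM. Its FPKM was 2.51 and 0.893 at 0 h, 2.43 and 2.099 at 1 h and 6.63 and 2.296 at 2 h in RelA(wt), 0 in both at 0 h, 2.398 and 2.49 at 1 h and 4.62 and 2.49 at 2 h in RelA(TA2) and 1.21 and 1.603 at 0 h, 1.28 and 1.099 at 1 h and 0 and 1.59 at 2 h in RelA(Ser276Ala). By recovered fragments Ifit1 was at 0.962 and 1.41 at 0 h, 2.23 and 1.97 at 1 h and 6.88 and 5.01 at 2 h per M in RelA(wt), and at 0 in both at 0 h, 1.72 and 1.21 at 1 h and 1.76 and 1.503 at 2 h in RelA(TA2). On that measure it reached its highest values in RelA(wt) at 2 h, where the rise from 0 h was 1.93 ± 0.38 (adjusted p = 0.00699), lost without RelA(wt) 0 h or 2 h replicate 1 (adjusted p up to 0.0622). In RelA(TA2) the rise at 2 h passed both tests, 2.97 ± 0.64 (adjusted p = 0.0309) by FPKM, lost without any 1 of the 4 RelA(TA2) libraries of 0 h and 2 h (adjusted p up to 0.137), and 2.09 ± 0.38 (adjusted p = 0.00223) by fragments, which held throughout; both are against a group listed at 0. At 1 h the fragment difference in RelA(TA2) was 1.96 ± 0.38 (adjusted p = 0.00681), lost without RelA(TA2) 1 h replicate 1 (adjusted p up to 0.0649).

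Gbp2 and Gbp3, guanylate-binding proteins that attack intracellular pathogens, gave different results by the 2 measures. Gbp2 was assembled in 1 to 3 pieces, and its summed FPKM lay between 1.49 and 7.16 with no call. Its recovered fragments per M were 2.95 and 3.04 at 0 h, 4.79 and 3.86 at 1 h and 14.3 and 11.7 at 2 h in RelA(wt). RelA(TA2) had Gbp2 at 1.28 and 2.07 at 0 h, 3.14 and 3.304 at 1 h and 10.2 and 7.95 at 2 h. RelA(Ser276Ala) had Gbp2 at 1.07 and 1.52 at 0 h, 1.21 and 0.824 at 1 h and 1.304 and 1.01 at 2 h. Libraries of RelA(wt) and RelA(TA2) were highest at 2 h without overlap with earlier times, and those of RelA(Ser276Ala) overlapped over all 3 times. The rise from 0 h to 2 h by fragments was 4.33-fold in RelA(wt), 1.94 ± 0.23 (adjusted p = 2.72e-04), and 5.42-fold in RelA(TA2), 2.15 ± 0.23 (adjusted p = 7.05e-05), and both held throughout. At 1 h in RelA(TA2) it was 0.80 ± 0.23 (adjusted p = 0.0469), lost in 15 fits, all but those without RelA(TA2) 0 h replicate 2 or a RelA(Ser276Ala) library of 1 h (adjusted p up to 0.18). In RelA(Ser276Ala) the 2 h value differed from 0 h by -0.11 ± 0.23 (adjusted p = 0.828). The response at 2 h was lower in RelA(Ser276Ala) than in RelA(wt) by -2.05 ± 0.32 (adjusted p = 0.0281), the 1 member called there by fragments (0.229% of all genes); the call was lost in 9 of the 18 fits, those without RelA(wt) 0 h replicate 1 or 2, RelA(wt) 1 h replicate 1 or 2, RelA(wt) 2 h replicate 1, RelA(TA2) 1 h replicate 1 or 2, or RelA(Ser276Ala) 0 h or 2 h replicate 2 (adjusted p up to 0.116). The FPKM test of responses at 2 h called no member in RelA(Ser276Ala) (0.163% of all genes), with 6 at an unadjusted p under 0.05.

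Gbp3 was listed at 0 in 14 libraries. In RelA(wt) it was at 0 in both at 0 h, 1.98 and 0 at 1 h and 4.32 and 7.72 at 2 h FPKM. In RelA(TA2) it was at 0 in both at 0 h, 0 in both at 1 h and 2.93 and 0 at 2 h, and in RelA(Ser276Ala) at 0 in all 6 libraries. By recovered fragments it was at 4.66 and 4.08 at 2 h per M in RelA(wt), and that rise, 3.28 ± 0.64 (adjusted p = 0.00656), held throughout. The guanylate-binding proteins are alike in sequence, and reads that fit several of them could have been split by the authors' assembly.

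Of the remaining effectors, Bst2, which tethers budding virus, was steady at 39.7 to 65.0 FPKM with no call by either measure. Mx2 was listed at 0 in 13 libraries and reached 1.34 FPKM at most. Ifi35 was at 0 in 13 libraries and at 10.5 to 20.3 FPKM in 5, at least 1 of them in each line, which is all or nothing within conditions and was not called. Isg15, a ubiquitin-like modifier, had 0.485 to 2.23 fragments per M and did not change with time within a line. Usp18, the protease that removes it, was at 3.35 and 4.73 at 0 h, 1.22 and 0 at 1 h and 0 in both at 2 h FPKM in RelA(TA2). RelA(wt) had 0 in both at 0 h, 0 in both at 1 h and 2.51 and 1.14 at 2 h, and RelA(Ser276Ala) had 0 in all 6 libraries. RelA(TA2) thus held it at 0 h and RelA(wt) at 2 h. By FPKM it fell in RelA(TA2) at 2 h, -3.17 ± 0.51 (adjusted p = 0.00727), and its response at 2 h was lower there than in RelA(wt) by -5.32 ± 0.72 (adjusted p = 0.0141), the 1 member called (0.212% of all genes). Both held throughout, but no library reached 1 fragment per M, so Usp18 was not tested by fragments. That test called no member for RelA(TA2) at 2 h (0.306% of all genes), with 9 at an unadjusted p under 0.05.

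Eif2ak2, the kinase PKR that stops translation on double-stranded RNA, was low in 1 condition. It was at 16.1 and 17.4 at 0 h, 14.6 and 15.1 at 1 h and 16.8 and 14.9 at 2 h FPKM in RelA(wt). RelA(TA2) held Eif2ak2 at 17.4 and 15.6 at 0 h, 14.3 and 15.8 at 1 h and 15.3 and 14.6 at 2 h. RelA(Ser276Ala) held it at 16.9 and 16.8 at 0 h, 6.98 and 7.98 at 1 h and 25.6 and 14.4 at 2 h. Both RelA(Ser276Ala) libraries of 1 h lay below all other libraries. The difference from 0 h was -1.12 ± 0.20 (adjusted p = 0.0197), lost without RelA(Ser276Ala) 0 h replicate 1 or 2 or RelA(Ser276Ala) 1 h replicate 1 (adjusted p up to 0.0977). Against RelA(wt) at 1 h it was -0.95 ± 0.20 (adjusted p = 0.0354), lost in 14 of the 18 fits, all but those without a RelA(TA2) library of 0 h or a RelA(Ser276Ala) library of 2 h (adjusted p up to 0.153). The assembly moved with this result: in the other 16 libraries the longest Eif2ak2 transcript, of 5347 to 7268 bases, ran on into the downstream gene Gm6548, and in these 2 it had 3685 and 3696 bases and nothing was assembled over Gm6548. The part of the assembly in the result was not tested. Shared out over annotated exons, the response at 1 h differed from that of RelA(wt) by -1.24 ± 0.12 (adjusted p = 3.51e-04), against -1.80 ± 0.09 (adjusted p = 1.03e-06) for whole transcripts; by fragments Eif2ak2 and Irf1 were the 2 members called in this comparison (0.229% of all genes).

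**Figure D3:**
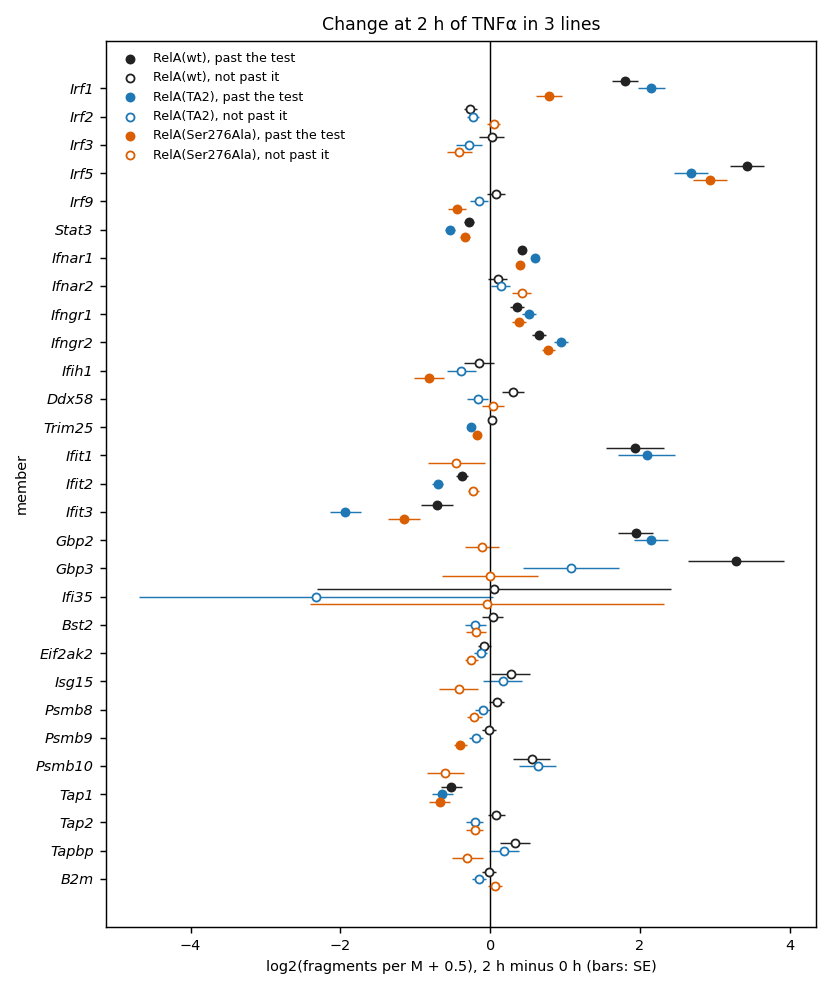
Difference between 2 h of TNFα and 0 h for each member, as log2(fragments per M + 0.5) with its SE (bars), in the 3 lines; filled points passed the limma test and open points did not, and Irf9, Eif2ak2 and Tapbp are drawn from fragments over annotated exons. Irf1, Ifngr2, Ifnar1 and Irf5 lie to the right of 0 in all 3 lines and Ifit3, Stat3 and Tap1 to the left; the wide bars of Ifi35 come from libraries listed at 0.

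No member of the immunoproteasome or of class I presentation passed the FPKM test with time, which covers Psmb8, Psmb9, Psmb10, Tap1, Tap2, Tapbp and B2m in all 3 lines. By fragments Psmb9 fell in RelA(Ser276Ala) at 2 h, -0.40 ± 0.09 (adjusted p = 0.0199), lost without either RelA(Ser276Ala) library of 2 h or 0 h replicate 2 (adjusted p up to 0.169). By recovered fragments Tap1, 1 chain of the pump that carries peptides into the endoplasmic reticulum, was at 69.1 and 82.5 at 0 h, 76.8 and 76.1 at 1 h and 46.8 and 58.7 at 2 h per M in RelA(wt). RelA(TA2) had Tap1 at 69.6 and 91.8 at 0 h, 68.6 and 69.98 at 1 h and 46.4 and 56.4 at 2 h. RelA(Ser276Ala) had Tap1 at 56.3 and 55.3 at 0 h, 56.9 and 52.3 at 1 h and 35.1 and 34.3 at 2 h. Both libraries of 2 h were below all earlier ones in each line, and the differences at 2 h were -0.52 ± 0.14 (adjusted p = 0.0314), -0.64 ± 0.14 (adjusted p = 0.00638) and -0.68 ± 0.14 (adjusted p = 0.0125). These were lost without RelA(wt) 2 h replicate 1 or 0 h replicate 2, without RelA(TA2) 2 h replicate 1 or 0 h replicate 2, and without any 1 RelA(Ser276Ala) library of 0 h or 2 h (adjusted p up to 0.222, 0.0597 and 0.0752). Averaged over lines the fragment difference at 2 h was -0.61 ± 0.08 (adjusted p = 1.50e-04) and held throughout. Tapbp was called higher in RelA(Ser276Ala) at 2 h by fragments of whole transcripts, 0.65 ± 0.17 (adjusted p = 0.0347), but over annotated exons the value was -0.30 ± 0.20 (adjusted p = 0.396).

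Between lines at one time, the FPKM test called 3 members for RelA(TA2) against RelA(wt) at 0 h (3.26% of all genes), 2 at 1 h (2.79%) and 3 at 2 h (3.01%). For RelA(Ser276Ala) against RelA(wt) it called none at 0 h (1.88% of all genes; 5 members had an unadjusted p under 0.05 and the fragment test called 8), 2 at 1 h (2.87%) and 4 at 2 h (3.38%). By recovered fragments the counts for RelA(TA2) were 6 at 0 h (23.3% of all genes), 7 at 1 h (20.6%) and 11 at 2 h (23.3%). For RelA(Ser276Ala) they were 8 at 0 h (16.7% of all genes), 12 at 1 h (22.4%) and 17 at 2 h (27.8%). All 37 fragment calls for RelA(Ser276Ala) were lower than RelA(wt), and a member called at several times counts once for each. Of all 11778 genes, 831 were called lower at 0 h, 1282 at 1 h and 1483 (12.6%) at 2 h. At 2 h, 12 of the 17 held throughout. The comparisons of the 2 mutants share the RelA(wt) libraries.

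Averaged over the 3 times, RelA(Ser276Ala) was lower than RelA(wt) in 6 of 32 members by FPKM and higher in none (12.0% of all genes called, 5.11% called lower): Irf1, Trim25, Ifit3, Psmb8, Psmb9 and Tap2. By recovered fragments 21 of 29 were lower and none higher (45.7% of all genes called, 21.1% lower), and 20 of the 21 held throughout. The members' median difference was -0.35 on both measures, beside 0.02 (FPKM) and 0.01 (fragments) for all genes. RelA(TA2) against RelA(wt) gave 4 of 32 by FPKM, 1 higher (Ifngr2) and 3 lower (Ifnar1, Trim25 and Ifit3; 11.3% of all genes called), and 11 of 29 by fragments, 2 higher and 9 lower (42.4%). The 2 higher were Ifngr2 and Tapbp, and over annotated exons Tapbp was at -0.20 ± 0.12 (adjusted p = 0.213), the other direction. RelA(TA2) against RelA(Ser276Ala) gave 7 of 32 by FPKM, 6 higher and 1 lower (12.0% of all genes), and 18 of 29 by fragments, 16 higher and 2 lower (45.1% of all genes called, 20.2% higher). The 2 lower were Ifit3 and Irf9, and over annotated exons Irf9 was at 0.27 ± 0.07 (adjusted p = 0.00873), the other direction.

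**Figure D4:**
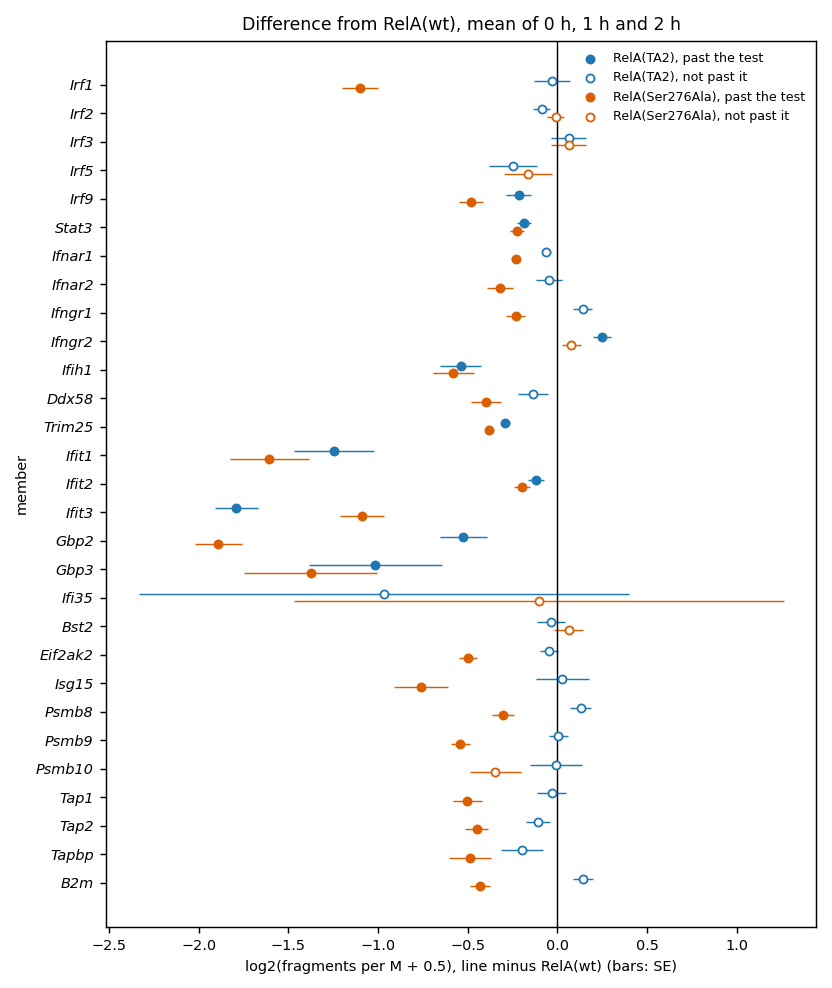
Difference of RelA(TA2) and of RelA(Ser276Ala) from RelA(wt), averaged over 0 h, 1 h and 2 h, as log2(fragments per M + 0.5) with its SE (bars), for each member; filled points passed the limma test, and Irf9, Eif2ak2 and Tapbp are drawn from fragments over annotated exons. Most RelA(Ser276Ala) points lie left of 0, with Gbp2, Ifit1 and Gbp3 farthest, while the RelA(TA2) points lie near 0 but for Ifit3, Ifit1, Gbp3, Ifih1, Gbp2 and the rarely assembled Ifi35.

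Ifit3 differed most clearly between the lines: RelA(TA2) was below RelA(wt) by -1.67 ± 0.23 (adjusted p = 0.00302) at 1 h and -2.11 ± 0.23 (adjusted p = 9.35e-04) at 2 h, and by -1.61 ± 0.13 (adjusted p = 3.07e-05) on average, all of which held throughout. At 0 h the difference was -1.05 ± 0.23 (adjusted p = 0.0338), lost without a RelA(wt) library of 0 h or 1 h or a RelA(TA2) library of 0 h (adjusted p up to 0.126). RelA(Ser276Ala) was below RelA(wt) by -1.03 ± 0.13 (adjusted p = 6.34e-04) on average and above RelA(TA2), whose value against it was -0.58 ± 0.13 (adjusted p = 0.0156); both held throughout. At 2 h RelA(Ser276Ala) was lower than RelA(wt) by -1.30 ± 0.23 (adjusted p = 0.0125), lost without RelA(wt) 2 h replicate 2 or RelA(Ser276Ala) 2 h replicate 2 (adjusted p up to 0.0685).

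Irf1 was lower in RelA(Ser276Ala) than in RelA(wt) on average, -1.06 ± 0.11 (adjusted p = 1.62e-04), and RelA(TA2) was above RelA(Ser276Ala) by 1.04 ± 0.11 (adjusted p = 1.64e-04). At 1 h RelA(TA2) was lower than RelA(wt) by -1.003 ± 0.19 (adjusted p = 0.0165), lost without RelA(wt) 1 h replicate 1 or RelA(TA2) 1 h replicate 2 (adjusted p up to 0.112), and -0.99 ± 0.17 (adjusted p = 0.00238) by fragments, which held throughout.

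Trim25 was lower in both mutant lines. Its FPKM was 16.1 and 15.9 at 0 h, 15.2 and 14.6 at 1 h and 16.7 and 22.9 at 2 h in RelA(wt). RelA(TA2) held Trim25 at 15.3 and 14.9 at 0 h, 11.5 and 11.9 at 1 h and 12.6 and 12.2 at 2 h. RelA(Ser276Ala) held Trim25 at 13.2 and 13.9 at 0 h, 11.6 and 11.1 at 1 h and 11.96 and 11.97 at 2 h. At 1 h and 2 h neither mutant line overlapped RelA(wt). The average differences were -0.35 ± 0.07 (adjusted p = 0.00964) for RelA(TA2) and -0.43 ± 0.07 (adjusted p = 0.00272) for RelA(Ser276Ala), and both held throughout. At 2 h they were -0.64 ± 0.12 (adjusted p = 0.021), lost without RelA(wt) 2 h replicate 2 or either RelA(TA2) library of 2 h (adjusted p up to 0.0821), and -0.69 ± 0.12 (adjusted p = 0.0127), lost without either RelA(Ser276Ala) library of 2 h (adjusted p up to 0.0509). By fragments all 6 single-time differences passed.

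Gbp2, Gbp3 and Ifit1, which rose in RelA(wt) at 2 h by fragments, were the members farthest below RelA(wt) in RelA(Ser276Ala) at that time; the 2 comparisons share the RelA(wt) libraries of 2 h. Gbp2 was lower by -3.02 ± 0.23 (adjusted p = 1.06e-05) by fragments at 2 h and by -1.67 ± 0.23 (adjusted p = 5.40e-04) at 1 h. Ifit1 was lower by -3.12 ± 0.38 (adjusted p = 2.29e-04), Gbp3 by -3.28 ± 0.64 (adjusted p = 0.00345) and Isg15 by -1.26 ± 0.26 (adjusted p = 0.00455) at 2 h. These held throughout, while by FPKM Gbp3 alone was called, -3.65 ± 0.84 (adjusted p = 0.0431), and that call was lost in 14 of the 18 fits, all but those without a RelA(TA2) library of 2 h or a RelA(wt) library of 1 h (adjusted p up to 0.193). Isg15 by FPKM was 2.74 and 4.595 at 0 h, 3.69 and 3.08 at 1 h and 4.43 and 4.65 at 2 h in RelA(wt). RelA(TA2) held Isg15 at 3.399 and 6.19 at 0 h, 3.51 and 4.196 at 1 h and 4.79 and 4.82 at 2 h, and RelA(Ser276Ala) held Isg15 at 4.03 and 2.38 at 0 h, 3.01 and 2.63 at 1 h and 2.19 and 1.77 at 2 h. RelA(TA2) was above RelA(Ser276Ala) by 0.66 ± 0.17 (adjusted p = 0.0316) on average, lost in 9 fits, those without RelA(TA2) 0 h replicate 2, RelA(TA2) 1 h or 2 h replicate 1 or 2, RelA(Ser276Ala) 0 h or 2 h replicate 2 or RelA(Ser276Ala) 1 h replicate 1 or 2 (adjusted p up to 0.0771), and by 0.79 ± 0.15 (adjusted p = 0.00131) by fragments, which held throughout. Usp18 was higher in RelA(TA2) than in RelA(wt) at 0 h by 3.17 ± 0.51 (adjusted p = 0.00765), and higher than in RelA(Ser276Ala) on average by 1.35 ± 0.30 (adjusted p = 0.0137); its lower value in RelA(Ser276Ala) than in RelA(wt) at 2 h, -2.15 ± 0.51 (adjusted p = 0.0483), was lost in 16 of the 18 fits, all but those without a RelA(TA2) library of 1 h (adjusted p up to 0.209).

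Several antigen-processing genes were lower in RelA(Ser276Ala) than in RelA(wt) when the 3 times were averaged. Psmb8, a catalytic subunit that replaces its standard counterpart in the immunoproteasome, was at 25.2 and 26.7 at 0 h, 19.004 and 21.5 at 1 h and 26.2 and 23.8 at 2 h FPKM in RelA(wt). RelA(TA2) held Psmb8 at 27.1 and 36.6 at 0 h, 25.2 and 28.3 at 1 h and 27.3 and 29.8 at 2 h. RelA(Ser276Ala) held Psmb8 at 14.9 and 16.6 at 0 h, 23.8 and 20.2 at 1 h and 13.6 and 18.8 at 2 h. The average difference from RelA(wt) was -0.41 ± 0.10 (adjusted p = 0.024), lost without any of 6 libraries, RelA(wt) 2 h replicate 1, 0 h or 1 h replicate 2, and RelA(Ser276Ala) 0 h or 2 h replicate 1 or 1 h replicate 2 (adjusted p up to 0.0638). By fragments it was -0.30 ± 0.06 (adjusted p = 0.00142), and RelA(TA2) was above RelA(Ser276Ala) by 0.69 ± 0.10 (adjusted p = 0.00134) by FPKM; these 2 held throughout.

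Psmb9 was at 23.3 and 23.8 at 0 h, 32.2 and 21.7 at 1 h and 25.3 and 26.6 at 2 h FPKM in RelA(wt). RelA(TA2) held Psmb9 at 30.6 and 24.8 at 0 h, 19.8 and 22.7 at 1 h and 27.7 and 33.3 at 2 h. RelA(Ser276Ala) held Psmb9 at 21.01 and 17.6 at 0 h, 21.3 and 20.8 at 1 h and 17.7 and 16.3 at 2 h. By FPKM the RelA(Ser276Ala) libraries of every time lay below both RelA(wt) libraries of that time. The average difference was -0.40 ± 0.10 (adjusted p = 0.0293), lost in 8 fits, each without a RelA(wt) library of 0 h or 2 h, a RelA(Ser276Ala) library of 1 h, or RelA(Ser276Ala) 0 h or 2 h replicate 2 (adjusted p up to 0.0755), and -0.54 ± 0.05 (adjusted p = 1.14e-05) by fragments, which held throughout. Psmb10, the third of these subunits, had 12.4 to 65.2 FPKM and no FPKM call.

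Tap2, the other chain of the peptide pump, was at 19.03 and 20.96 at 0 h, 23.1 and 21.9 at 1 h and 22.4 and 20.9 at 2 h FPKM in RelA(wt). RelA(TA2) held Tap2 at 15.7 and 26.5 at 0 h, 19.1 and 21.03 at 1 h and 18.3 and 19.9 at 2 h. RelA(Ser276Ala) held Tap2 at 16.1 and 17.2 at 0 h, 17.4 and 16.5 at 1 h and 14.7 and 12.999 at 2 h. The average difference between RelA(Ser276Ala) and RelA(wt) was -0.43 ± 0.11 (adjusted p = 0.0273), lost in 8 fits, each without a RelA(wt) library other than 0 h replicate 1 or without RelA(Ser276Ala) 0 h replicate 1, 1 h replicate 2 or 2 h replicate 2 (adjusted p up to 0.0681). Fragments gave -0.45 ± 0.06 (adjusted p = 1.92e-04) for Tap2 and -0.50 ± 0.08 (adjusted p = 4.33e-04) for Tap1, which held throughout. Tapbp, the tapasin that holds class I molecules at the pump, was joined to a neighbour in some libraries. Over annotated exons it was lower by -0.49 ± 0.12 (adjusted p = 0.00603), a value that also carries coverage of the neighbour.

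B2m, the invariant chain of class I molecules, was the most abundant member. Its recovered fragments per M were 2249 and 2347 at 0 h, 2177 and 2221 at 1 h and 2257 and 2275 at 2 h in RelA(wt). RelA(TA2) held B2m at 2359 and 2963 at 0 h, 2377 and 2540.2 at 1 h and 2364 and 2389 at 2 h. RelA(Ser276Ala) held B2m at 1646 and 1647 at 0 h, 1538 and 1783 at 1 h and 1632 and 1804 at 2 h. All 6 RelA(Ser276Ala) libraries lay below all 12 others. The average difference from RelA(wt) was -0.43 ± 0.06 (adjusted p = 8.62e-05) and that of RelA(TA2) from RelA(Ser276Ala) 0.57 ± 0.06 (adjusted p = 9.62e-06), and both held throughout. The FPKM difference from RelA(wt) was -0.22 ± 0.30 (adjusted p = 0.717) and did not pass. Differences in the receptor chains were smaller: by fragments Ifnar1 was lower in RelA(Ser276Ala) by -0.23 ± 0.03 (adjusted p = 3.30e-05), Ifnar2 by -0.32 ± 0.07 (adjusted p = 0.00367) and Ifngr1 by -0.23 ± 0.05 (adjusted p = 0.00409), all held throughout. By FPKM Ifnar2 was not called and lay the other way. It was at 21.2 to 62.3 (median 24.9) in RelA(Ser276Ala) and 19.9 to 24.2 (median 23.2) in RelA(wt). By FPKM RelA(TA2) was above RelA(Ser276Ala) in Ifngr1 by 0.37 ± 0.06 (adjusted p = 0.00375), which held throughout. The FPKM calls of RelA(TA2) against RelA(wt) for Ifngr2, 0.26 ± 0.06 (adjusted p = 0.0218), and Ifnar1, -0.69 ± 0.17 (adjusted p = 0.0277), were lost in 3 and 8 fits (adjusted p up to 0.0569 and 0.0702); for Ifngr2 these were the fits without RelA(wt) 1 h or 2 h replicate 2 or RelA(TA2) 1 h replicate 1, and for Ifnar1 those without RelA(wt) 1 h replicate 1 or 2, RelA(wt) 2 h replicate 1, or any RelA(TA2) library but 1 h replicate 1. By fragments the Ifnar1 difference was -0.06 ± 0.03 (adjusted p = 0.0821) and did not pass.

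**Figure D5:**
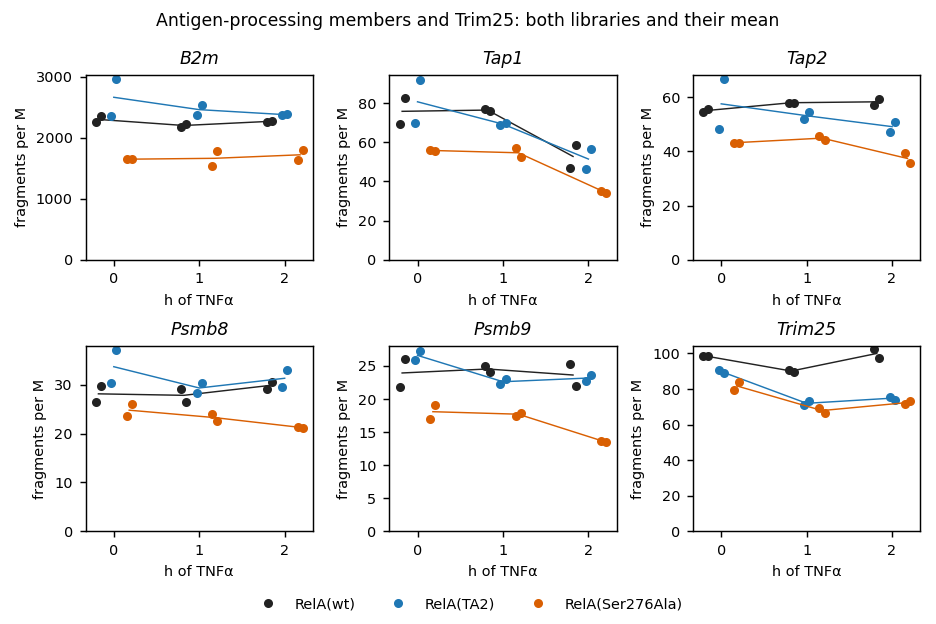
Recovered fragments per M (y, from 0) against h of TNFα (x) for B2m, Tap1, Tap2, Psmb8, Psmb9 and Trim25; points are the 2 libraries of each condition, set side by side by line, and lines join the means. For B2m all RelA(Ser276Ala) points, 1538 to 1804, lie below those of the other 2 lines, and Tap1 is lowest at 2 h in each line.

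Genes of the same pathways outside the list were read the same way. Of 32 genes of interferon production and signalling, 24 were tested; the interferon genes Ifnb1, Ifna2, Ifna4 and Ifng were listed at 0 in all libraries. By FPKM 2 rose in RelA(wt) at 2 h, 2 rose and 1 fell in RelA(TA2) and 1 fell in RelA(Ser276Ala), with the background given above for these comparisons. Il15ra, the α chain of the interleukin 15 receptor, rose by 1.71 ± 0.22 (adjusted p = 0.00102) averaged over lines at 2 h, and Ticam1, an adaptor of Toll-like receptor 3, was lower by -0.71 ± 0.09 (adjusted p = 7.05e-04). Averaged over times 5 of the 24 were lower in RelA(Ser276Ala) than in RelA(wt) and 1 was higher by FPKM (12.0% of all genes called, 5.11% lower), and 13 were lower and 3 higher by fragments (45.7% called, 21.1% lower). Ikbke, a kinase upstream of Irf3, was lower by -1.21 ± 0.18 (adjusted p = 0.00157). Ikbke FPKM was 10.6 and 10.9 at 0 h, 25.9 and 16.7 at 1 h and 30.3 and 20.3 at 2 h in RelA(wt) and 7.11 and 9.99 at 0 h, 7.42 and 7.32 at 1 h and 5.07 and 8.33 at 2 h in RelA(Ser276Ala), with no overlap at any time.

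Of 52 other interferon-stimulated genes, 32 were tested, and 15 were listed at 0 in all libraries. Gbp5, Gbp6 and Gbp7 were listed at 0 in every library except the 2 of RelA(wt) at 2 h, at 3.02 and 1.83, 2.19 and 1.12 and 4.19 and 3.65 FPKM in that order; Gbp6 was named after its values were seen. They entered the test through that condition alone, which fixed a higher level there and a lower response in the other lines, so only their levels are given. Daxx, a nuclear corepressor, fell in RelA(wt) at 2 h by -0.52 ± 0.10 (adjusted p = 0.0335). That call was lost in 10 fits, those without any 1 of the 6 RelA(wt) libraries, either RelA(TA2) library of 1 h or either RelA(Ser276Ala) library of 0 h (adjusted p up to 0.155). Daxx was also called lower at 2 h by FPKM in RelA(TA2) and averaged over lines, though not in RelA(Ser276Ala). By fragments it was called lower at 2 h in all 3 lines. Lgals9, a galectin, was at 13.1 to 15.2 FPKM in RelA(wt) and at 22.2 to 26.3 FPKM in RelA(TA2), higher by 0.83 ± 0.07 (adjusted p = 3.59e-05). Averaged over times 7 of the 32 were lower in RelA(Ser276Ala) than in RelA(wt) by FPKM, and none was called higher (12.0% of all genes called, 5.11% lower). Irgm1, Igtp, Tor3a and Parp10 were among them. The rest were Gbp5, Gbp6 and Gbp7, whose direction was fixed as said above, so they do not count as support. By fragments 22 were lower, again with Gbp5, Gbp6 and Gbp7 among them, and 2 higher, Herc6 and Samhd1 (45.7% called, 21.1% lower). Irgm1, a GTPase of the interferon γ response, was lower by -0.45 ± 0.09 (adjusted p = 0.00907) by FPKM.

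Of 22 further genes of class I presentation, 18 were tested. By FPKM limma called none with time in any line, with 0 to 2 at an unadjusted p under 0.05 in the 6 comparisons, and by fragments, with genes named after their values were seen, Tapbpl and Psme3 rose at 2 h in RelA(wt) and RelA(TA2), Psme2 in RelA(wt) and Psme3 in RelA(Ser276Ala). RelA(Ser276Ala) had 10.7% of all genes called by fragments at 2 h, RelA(TA2) had 28.9% and RelA(wt) had 13.6%. Averaged over lines the fragment test at 2 h called 2 of the 18 higher, Psme3 and Tapbpl. It called 3 lower, Psme4, Nlrc5 and H2-M3 (39.5% of all genes called in either direction). Averaged over times 5 of the 18 were lower in RelA(Ser276Ala) than in RelA(wt) by FPKM (12.0% of all genes called, 5.11% lower), and by fragments 10 were lower and 4 higher, Psme3, Calr, Canx and Psme4 (45.7% called, 21.1% lower). The 5 by FPKM were H2-K1 by -0.48 ± 0.08 (adjusted p = 0.00231), H2-D1 by -0.26 ± 0.06 (adjusted p = 0.0168), H2-T22 by -0.50 ± 0.11 (adjusted p = 0.0118), and of the proteasome activator genes Psme2 by -0.33 ± 0.04 (adjusted p = 5.41e-04) and Psme1 by -0.22 ± 0.06 (adjusted p = 0.0393). The first 4 held throughout, and the Psme1 call was lost in 10 fits, all but 2 of those without a library of these 2 lines (adjusted p up to 0.0952). RelA(TA2) was lower than RelA(wt) in Psme1, -0.39 ± 0.06 (adjusted p = 0.00255), and Psme2, -0.31 ± 0.04 (adjusted p = 8.30e-04), and higher in Pdia3 and in Calr, a chaperone of class I molecules, 0.40 ± 0.05 (adjusted p = 2.99e-04). The class I heavy chain genes are near-identical in stretches, so their reads may have been split between them. None of the 7 standard catalytic and structural β subunits tested (Psmb1 to Psmb7) passed the FPKM test of limma in any comparison, with at most 1 at an unadjusted p under 0.05. By fragments 3 of the 7 were lower in RelA(TA2) than in RelA(wt) averaged over times (42.4% of all genes called): Psmb7, Psmb5 and Psmb1. On the same average Psmb7 was lower and Psmb3 higher in RelA(Ser276Ala) than in RelA(wt) (45.7% of all genes called). Psmb7 and Psmb2 rose in RelA(TA2) at 2 h (28.9% of all genes called).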

How the data were processed

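RNA was read from 18 libraries, per the labels of poly-dT primed cDNA made with the TruSeq kit, 2 for each of 3 lines at each of 3 times, grouped by their labels. According to the methods and the submitters' processing notes, the authors demultiplexed with CASAVA 1.8.2, aligned reads to the mm10 genome (Bowtie2 2.0.0.7 within TopHat2 2.0.5) and built transcripts library by library in Cufflinks 2.0.2. Whether the protocol kept strand is not given in the sources used here. The deposited values are FPKM per assembled transcript, with confidence limits, written as attributes of transcript models and scaled by the authors to mapped fragments in each library. Comparison output of Cuffdiff was not used.

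Each assembled transcript was placed on the gene whose exons shared most bases with it. The shared bases had to be at least 50% of those of the transcript or of the gene's exons. FPKM was summed per gene, and a gene with no transcript placed on it in a library was set to 0 there. The number of fragments behind each transcript was recovered from its FPKM, its upper limit and its length, and 88.9 to 90.2% of values below 500 fell within 0.02 of a whole number. This gave 22.1 to 27.8 M fragments in genes per library, on which precision depends. Of the genes tested, 14.9% were at 0 in some library, and replicates correlated at r of 0.898 to 0.913 across genes on the log2(FPKM + 0.5) scale, where genes are not independent replicates. In the added measure over annotated exons, the fragments of an assembled transcript were shared out over the genes whose exons it overlaps, by the share of its bases in each.

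Genes at 1 FPKM or more in at least 2 libraries were tested with limma 3.58.1 (R 4.3.3), with 1 mean per condition over all 18 libraries (9 residual degrees of freedom), a variance trend, two-sided p-values and Benjamini-Hochberg adjustment over all genes tested. Recovered fragments are not the authors' counts and went through the same log2 test. The pipeline was tested on simulated data. Tables and plots were made with Python 3.11.15, numpy 2.4.6, pandas 2.3.3 and matplotlib 3.10.9. The members and gene lists were chosen with earlier results of these data known. Values in every library are given for members past the FPKM test in at least 1 comparison and otherwise for 1 or 2 per role with the highest mean FPKM or for members that a fragment call concerns, the latter chosen after their values were seen; genes outside the list are named where they passed the FPKM test, up to 6 per list by smallest adjusted p, unless said otherwise. Alternatives were the amount added, the filter, the highest isoform, median-of-ratios scaling, no variance trend, only the compared groups, a replicate block, recovered fragments and each library left out; the exon measure and the alternatives of the fragment test were chosen after seeing the data.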

Additional observations from a re-analysis of the deposited data

Results flagged for a closer look

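The response to TNFα, taken as the difference between treated and untreated libraries of a line, differed between lines for 5 members by limma's test of the difference itself. Irf1 responded less at 1 h in RelA(Ser276Ala) than in RelA(wt), by -2.67 on the log2(FPKM + 0.5) scale and -2.80 on that of recovered fragments per M, and in RelA(TA2) than in RelA(wt) by -1.27 by fragments. All treated libraries were above untreated ones in each of these lines. Gbp2 at 2 h responded less in RelA(Ser276Ala) than in RelA(wt), by -2.05 by fragments. Eif2ak2 at 1 h was lower by -1.80 in RelA(Ser276Ala), and by -1.24 over annotated exons, in the 2 libraries where its transcript was also assembled shorter. Usp18 at 2 h was lower by -5.32 by FPKM in RelA(TA2), a value between groups partly listed at 0 whose size depends on the amount added. The Irf9 response at 1 h in RelA(TA2), 7.53 by fragments of whole transcripts, was -0.43 over annotated exons. No cause was tested for these differences.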

How the results depend on the processing

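Calls of members were counted over 5 families of FPKM tests: 17 with time within lines, 7 with time averaged over lines, 14 between lines at one time, 17 between lines averaged over times and 2 of responses. Recovered fragments gave 47, 26, 61, 50 and 5, and fragments over annotated exons, chosen after seeing the data, 44, 25, 58, 48 and 4. With only the compared groups in the fit, which leaves fewer libraries, 6 calls with time within lines and 1 between lines at one time were made. The filter of 5 FPKM, under which fewer members are tested, left 9 between lines at one time and 1 of responses. Leaving out 1 library gave 14 to 18, 7 to 9, 8 to 12, 13 to 20 and 2 to 4 by FPKM. The third family was at 8 without RelA(wt) 0 h replicate 1 or 2 and at 9 without RelA(Ser276Ala) 1 h replicate 1 or 2, and the fifth at 4 without RelA(wt) 2 h replicate 1, RelA(TA2) 1 h replicate 1 or RelA(Ser276Ala) 0 h replicate 2. By fragments leaving out 1 library gave 40 to 60, 24 to 30, 46 to 77, 46 to 52 and 2 to 15, the highest of the last without RelA(TA2) 0 h replicate 1; it was 2 without RelA(wt) 0 h replicate 1 or 2, RelA(wt) 1 h replicate 1 or RelA(TA2) 1 h replicate 2, and 3 without RelA(wt) 2 h replicate 1, RelA(wt) 1 h replicate 2, RelA(TA2) 1 h replicate 1 or RelA(TA2) 0 h replicate 2. Of 57 member calls by FPKM 36 were made with every library left out in turn and 21 were lost in some fit, and of 189 by fragments 119 and 70. Among the alternatives counted, none other than the exon measure turned a sign. Calls by fragments were not set against FPKM in that count. The fragment calls of Ifnar1 at 2 h in RelA(wt) and RelA(TA2) had the other direction by FPKM, and they are not the only such calls. Psmb10 was called lower in RelA(Ser276Ala) than in RelA(wt) at 2 h by fragments. Its FPKM over all times was 19.2 to 65.2 in RelA(Ser276Ala) and 12.4 to 25.1 in RelA(wt). Ifnar2, called lower there by fragments averaged over times, had a median of 24.9 FPKM against 23.2 in RelA(wt). In RelA(TA2) Ifih1, also called lower on that average, had a median of 5.86 FPKM against 2.98 in RelA(wt). Over exons Irf9 in RelA(TA2) against RelA(wt) at 0 h was at 0.001332, where FPKM and whole-transcript fragments put it lower. Of the calls by fragments, over exons Irf9 was at -0.41 in RelA(TA2) at 1 h against 0 h, at 0.27 in RelA(TA2) against RelA(Ser276Ala) on average and at -0.43 for the RelA(TA2) response at 1 h, and Tapbp at -0.30 in RelA(Ser276Ala) at 2 h against 0 h and at -0.20 in RelA(TA2) against RelA(wt) on average. These 2 genes were joined to neighbours by the assembly. The exon measure shares a joined transcript by bases of overlap and not by where reads fell. Its values for them therefore also carry coverage of the neighbour. The cause of the changes was not tested. Median-of-ratios scaling, no variance trend and no filter on low values left all 57 FPKM calls in place, and the highest isoform alone lost 18. Scaling moved the median of all genes by at most 0.053.

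The labels give the same replicate numbers to every condition but no shared culture or day. Over 36 pairs of conditions, same-numbered libraries correlated in their deviations by -0.0788 to 0.0697 by FPKM (median -0.00097) and by -0.0910 to 0.105 by fragments (median 0.0115). Correlations over all genes cannot show whether same-numbered libraries shared a culture or day, since an effect on few genes would not appear in them. With a replicate block the counts were 16, 7, 14, 17 and 2 by FPKM and 47, 26, 59, 51 and 4 by fragments.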
